A study of Capra hircus with 90 samples.

Results

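HBQ1 and HEMGN, the 2 genes of the deposited gene tables that stand on a list of red-cell genes, were followed through the 90 libraries of a goat brainstem study. They are 2 of 25144 genes in the count table. Both were chosen by measured values of these libraries: the authors' deposited table for the nucleus of the solitary tract after 24 h of CO2 lists both, HBQ1 with a log2 change of -0.84 (FDR 0.0231) and HEMGN with 1.80 (FDR 0.0136). That comparison is therefore described here without a test. The count table carries Ensembl identifiers only. Each symbol was tied to its row by the deposited mean abundance, which equalled that of a refit to the counts with a largest difference of 0 among linked entries. HBQ1 is ENSCHIG00000011714 and HEMGN is ENSCHIG00000023194.

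HBQ1 encodes the theta chain, a member of the alpha-globin gene family whose role is less clear than that of the main alpha chains. The alpha and beta chains form haemoglobin, the oxygen carrier that fills red cells. HEMGN encodes hemogen, a nuclear protein of blood-forming cells that takes part in red-cell differentiation. Bulk brain tissue keeps some blood in its vessels, and globin transcripts have also been described in cells of the nervous system. In bulk tissue, fewer cells of a type and less RNA per cell cannot be told apart.

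The goats were outbred adult females (Alpine, Saanen, Toggenburg and others) of at least 2 years. A group of 6 breathed room air for 24 h, and groups of 6 breathed 6% CO2 for 3 h or for 24 h. A further 6 goats breathed room air for 7 d and 6 breathed 6% CO2 for 7 d. The controls of the 3 h goats are the 24 h room-air goats, so their exposure times differ. Frozen brainstem was punched at 3 sites at stated distances rostral to the obex, which makes 15 groups of 6 libraries. They are the nucleus of the solitary tract (NTS) at 0 to 2 mm, a column of respiratory neurons called the ventral respiratory column (VRC) at 2 to 4 mm, and at 8 to 10 mm the CO2-sensing retrotrapezoid nucleus (RTN). RNA of the 3 shorter exposures was extracted and sequenced in a first batch and RNA of both 7 d groups in a second, so time and batch cannot be told apart between the 24 h and 7 d groups. Punches of equal number within an exposure group were taken as 1 goat, and the groups hold different goats.

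Libraries held 5.46 to 36.8 M counts, with group means of 18.9 to 28.5 M. Levels are given as TMM-scaled CPM, a count relative to library size, which do not allow for gene length, so HBQ1 and HEMGN are not compared in level with each other. HBQ1 had 80 to 626 counts per library, and its level lay between 4.90 and 24.8 CPM with a median of 10.4. HEMGN was sparse, with 0 to 88 counts per library and 0 to 3.40 CPM around a median of 0.892. HEMGN had 0 counts in 2 libraries, both from 3 h CO2 goats at the NTS (numbers 5 and 6), where 3 counts would be 0.135 and 0.148 CPM. These limits cover counting error only.

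In the first-batch NTS, 5 of 18 libraries stood apart from the rest, which an earlier analysis of these data had found: room air 5 and 6, 3 h of CO2 5 and 6, and 24 h of CO2 5. On the first principal component, which held 31.5% of the variance, they lay between 12.3 and 63.4 and the others between -30.0 and -8.59. The library at 12.3 was 24 h of CO2 number 5, nearer to the others than the next, room air number 6, at 36.3. The fitted NTS differences of the first batch are given with and without these 5 libraries. Group means, correlations over goats and likenesses between genes include them. Blood content could not be read from other red-cell genes. Of 54 genes on the erythroid list only HBQ1 and HEMGN were tied to a symbol, and 0 of 23 genes of haem synthesis and globin control and 0 of 12 platelet genes. The other genes of these lists are not analysed here.

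Ordered by mean level, HBQ1 had its highest and nearly its lowest value at the same site. NTS room air of the first batch led the 15 groups at 16.8 ± 4.69 CPM (SD, n = 6). NTS after 7 d of CO2 followed at 13.1 ± 2.93, NTS after 3 h of CO2 at 12.8 ± 3.11 and NTS after 7 d of room air at 12.8 ± 3.14 CPM. The fifth NTS group, 24 h of CO2, ranked 14 of 15 at 9.32 ± 3.24 CPM. Between them lay all VRC groups, at means of 9.91 to 11.4 CPM, and 4 RTN groups, at 9.35 to 11.4 CPM. RTN after 7 d of CO2 was last at 8.62 ± 1.13 CPM. All 14 pairs of neighbours in this order overlapped in their ranges.

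HEMGN had a different order. NTS after 24 h of CO2 led at 1.62 ± 0.937 CPM (SD, n = 6) and NTS after 7 d of CO2 followed at 1.33 ± 0.224. RTN after 24 h of CO2 came next at 1.23 ± 0.512 and RTN room air of the first batch at 1.13 ± 0.658 CPM. NTS room air of the first batch was last at 0.470 ± 0.359 CPM, just below NTS after 3 h of CO2 at 0.605 ± 0.575. The group that ranked first for HBQ1 thus ranked last for HEMGN. It is the room-air side of the contrast that chose HBQ1 as lower and HEMGN as higher after CO2. Its opposite places therefore partly follow from that choice. Again all 14 pairs of neighbours overlapped.

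**Figure D1:**
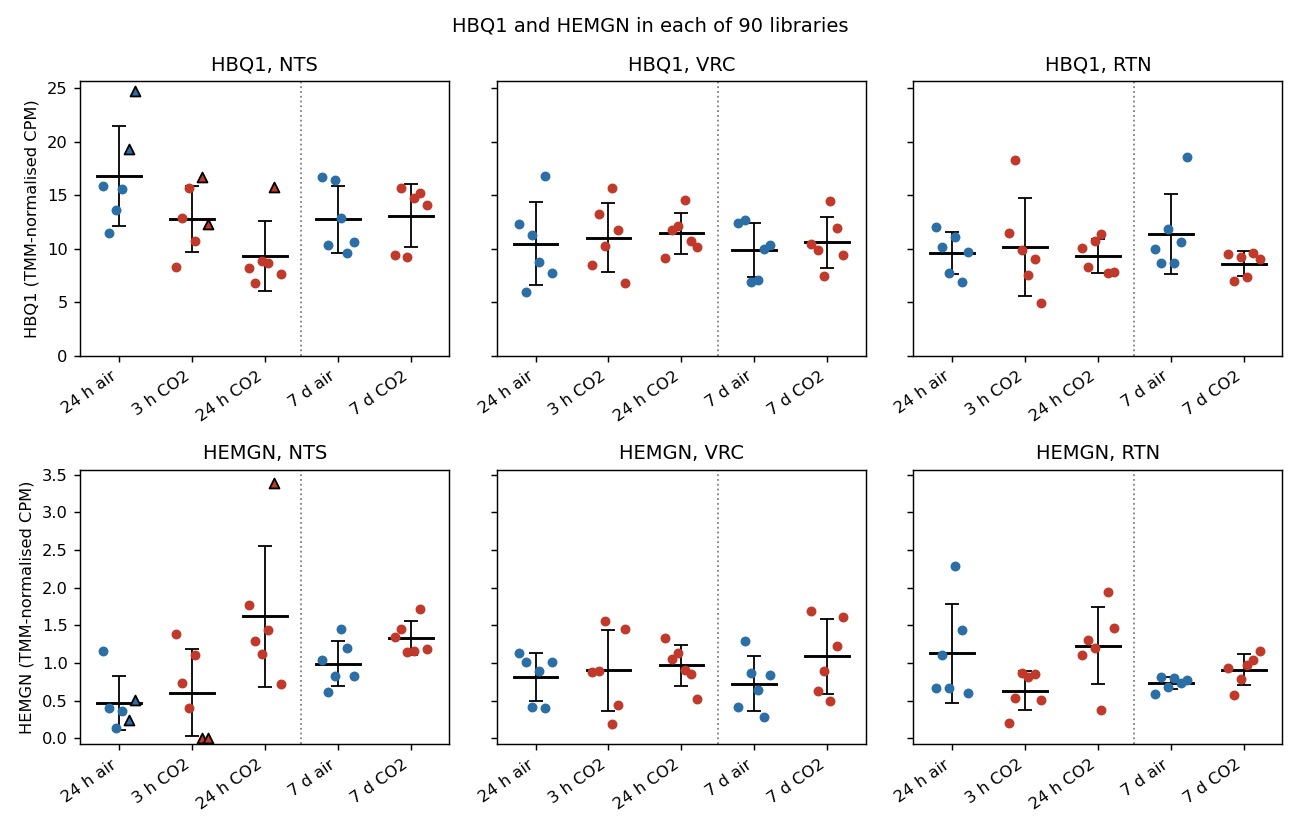
TMM-normalised CPM of HBQ1 (top) and HEMGN (bottom) in each of 90 libraries, by site and exposure; blue is room air, red is CO2, bars are the mean ± SD of 6 libraries, triangles mark the 5 NTS libraries that stood apart and the dotted line parts the batches. In the NTS the HBQ1 mean is 16.8 CPM in 24 h room air and 9.32 after 24 h of CO2, whereas the HEMGN mean is 0.470 and 1.62.

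The comparison that chose both genes is that of 24 h of CO2 with room air in the NTS, where HBQ1 was lower and HEMGN higher. HBQ1 in room air had 11.5 CPM in the lowest library, a median of 15.7 and 24.8 in the highest. After 24 h of CO2 these were 6.83, 8.43 and 15.8 CPM. Of the 6 CO2 libraries 5 lay below the lowest room-air library, and number 5 lay within the room-air range. The fitted difference was -0.82 on the log2 scale (SE 0.22). Without the 5 libraries that stood apart it was -0.80. Single libraries moved it both ways: it was -1.06 without CO2 number 5 and -0.68 without room air number 6, the highest.

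HEMGN in the same libraries had 0.144, 0.380 and 1.16 CPM in room air (lowest, median, highest), against 0.719, 1.36 and 3.40 CPM after 24 h of CO2. Behind these lay 4 to 27 counts in room air and 17 to 88 after CO2. Of the CO2 libraries 4 of 6 lay above the highest room-air library, which was number 1, so the groups overlapped. The fitted difference was 1.88 (SE 0.59), and 1.34 without the 5 libraries that stood apart. It was 1.47 without CO2 number 5, the highest, and 2.37 without room air number 1.

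After 3 h of CO2 in the NTS, compared with the same room-air libraries, the values are likewise a description. HBQ1 had 8.32, 12.6 and 16.7 CPM (lowest, median, highest), a fitted log2 difference of -0.39 (SE 0.21), and -0.28 without the 5 libraries that stood apart. It was -0.24 without room air number 6. HEMGN had 0, 0.570 and 1.39 CPM, a fitted difference of 0.52 (SE 0.68), and 0.98 without the 5 libraries that stood apart. Both groups overlapped room air for both genes. HEMGN after 3 h was uneven: the 2 libraries at 0 were those that stood apart, and the other 4 had 0.400 to 1.39 CPM.

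At the level of all genes neither NTS comparison of the first batch gave calls in edgeR's quasi-likelihood test. The share of genes with an adjusted p under 0.05 was 0% at 24 h and 0% at 3 h of 15605 tested, whereas 10.2% and 6.75% had an unadjusted p under 0.05. DESeq2 called 190 and 13 genes, voom with quality weights 273 and 1, and edgeR without the 5 libraries that stood apart 148 and 5. The rule that chose HBQ1 and HEMGN used the 24 h contrast, and nothing is read from these shares about them.

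**Figure D2:**
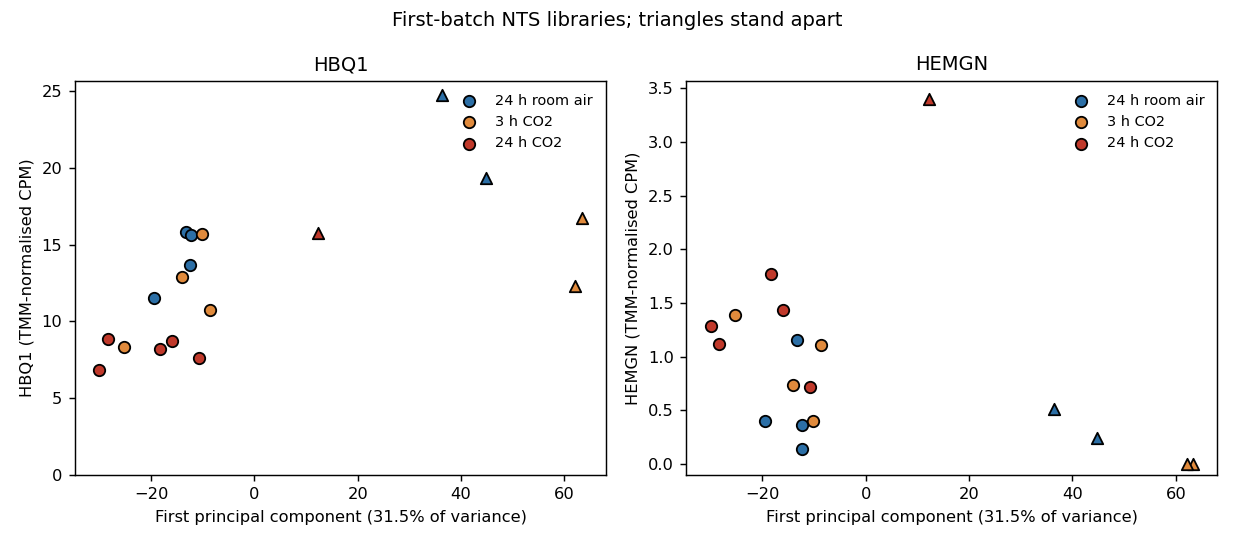
TMM-normalised CPM of HBQ1 (left) and HEMGN (right) in the 18 first-batch NTS libraries against the first principal component of all genes (31.5% of variance); colours are exposures and triangles the 5 libraries that stood apart. The triangles hold the 2 highest HBQ1 values, 24.8 and 19.3 CPM in room air, and for HEMGN both libraries at 0 and the highest at 3.40 CPM.

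Within the groups the 5 libraries took different places for the 2 genes. For HBQ1 the room-air pair had 19.3 and 24.8 CPM against 11.5 to 15.8 in the other 4 libraries. The CO2 library at 24 h had 15.8 CPM against 6.83 to 8.83 in the other 5. At 3 h the pair had 12.3 and 16.7 CPM, across a range of 8.32 to 15.7 in the other 4. For HEMGN the room-air pair, at 0.247 and 0.514 CPM, lay inside the range of the others, 0.144 to 1.16. The CO2 library at 24 h, at 3.40 CPM, lay above the others, which had 0.719 to 1.77.

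The markers of other cells that could be named were uneven over the first-batch NTS libraries. Only genes of the deposited tables have a symbol here. The authors picked those genes on these same libraries, so the named markers are no neutral sample of their lists. Of 15 neuronal markers 3 were tied to a symbol: PRPH, the peripherin of peripherally projecting neurons, and the neuropeptide genes GRP and NPFF. Their summed level ran from 5.15 to 668 CPM in NTS room air, 4.90 to 1206 CPM after 3 h of CO2 and 2.39 to 38.5 CPM after 24 h, highest in numbers 6, 6 and 5. Room air number 6, the highest HBQ1 library of the series, had 571 CPM of PRPH, 49.9 of GRP and 46.8 of NPFF against group medians of 5.07, 2.20 and 0.649. Of 18 neutrophil and monocyte markers 2 were tied to a symbol, CD14, a lipopolysaccharide co-receptor, and NCF4, a subunit of the phagocyte oxidase. Their sum ran from 8.07 to 14.8 CPM in room air, 10.2 to 14.9 after 3 h and 11.4 to 39.3 after 24 h of CO2, highest in numbers 5, 2 and 5, of which 3 h number 2 is not among the libraries that stood apart. CD14 was lowest in room air number 6, at 4.52 CPM, and in 3 h number 6, at 7.52 CPM, both of which stood apart.

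The 24 h CO2 library that was highest for HBQ1 and for HEMGN, number 5, was also the highest of its group in CD14, at 21.0 CPM, and in NCF4, at 18.3 CPM. The second-highest values of that group were 18.1 CPM for CD14 and 9.26 CPM for NCF4. The other 5 libraries had at most 8.83 CPM of HBQ1 and 1.77 CPM of HEMGN. AIF1, the only 1 of 15 microglial markers tied to a symbol, ran from 55.5 to 112 CPM in room air, highest in number 6, and from 28.3 to 65.2 after 24 h of CO2, highest in number 5. After 3 h it ran from 40.5 to 73.6 CPM, highest in number 5. None of these 6 markers was at 0 in any first-batch NTS library. The part of these cells in the HBQ1 and HEMGN values was not tested. The lists of lymphocytes (13 genes), pericytes and smooth muscle (9) and astrocytes (8) had 0 genes tied to a symbol. Those of endothelium had 6 of 18, of choroid plexus and meninges 1 of 10, and of oligodendrocytes 2 of 10.

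The same first-batch goats gave VRC and RTN punches, which lay outside the contrast that chose the genes. There neither gene passed the test at 24 h. HBQ1 in the VRC had 5.95, 10.0 and 16.9 CPM in room air (lowest, median, highest) and 9.17, 11.2 and 14.6 CPM after 24 h of CO2, all within the room-air range. The log2 difference was 0.13 (SE 0.22, 95% interval -0.32 to 0.58, edgeR adjusted p = 0.852), where 0.817% of 15424 genes were called. In the RTN HBQ1 had 6.87, 9.93 and 12.1 CPM in room air and 7.73, 9.20 and 11.4 after 24 h of CO2, again all within the room-air range. The difference was -0.04 (SE 0.23, -0.53 to 0.44, edgeR adjusted p = 0.989), where edgeR called 0% of 15479 genes, with 6.47% at an unadjusted p under 0.05 and 9 genes called by DESeq2. Whether the 24 h difference differs between sites was not tested, because the NTS contrast chose the gene.

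HEMGN at 24 h had 0.407, 0.955 and 1.13 CPM in VRC room air and 0.528, 0.980 and 1.33 CPM after CO2. The groups overlapped, with a log2 difference of 0.17 (SE 0.38, -0.61 to 0.95, edgeR adjusted p = 0.889). In the RTN HEMGN had 0.604, 0.889 and 2.30 CPM in room air, and with CO2 it had 0.380, 1.25 and 1.94 CPM. The difference was 0.22 (SE 0.37, -0.55 to 0.99, edgeR adjusted p = 0.954), with overlapping groups. Both HEMGN intervals span more than 1 log2 unit.

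After 3 h of CO2 neither gene passed the test in the VRC or the RTN, where 0.013% and 0.0129% of genes were called. HBQ1 differed by 0.12 in the VRC (SE 0.21, -0.32 to 0.56, edgeR adjusted p = 0.833) and by 0.07 in the RTN (SE 0.23, -0.40 to 0.54, edgeR adjusted p = 0.968). In the RTN the 3 h libraries spread more widely than room air, from 4.90 to 18.3 CPM, so that 1 lay above and 1 below the room-air range. HEMGN differed by 0.09 in the VRC (SE 0.37, -0.68 to 0.86, edgeR adjusted p = 0.936). In the RTN HEMGN had 0.209, 0.679 and 0.874 CPM after 3 h against 0.604, 0.889 and 2.30 CPM in room air. Behind these lay 5 to 24 counts after 3 h and 10 to 46 in room air. There 3 of 6 CO2 libraries lay below the lowest room-air library, and the difference was -0.79 (SE 0.41, -1.65 to 0.06, edgeR adjusted p = 0.750). Of the genes tested there 8.42% had a lower p.

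**Figure D3:**
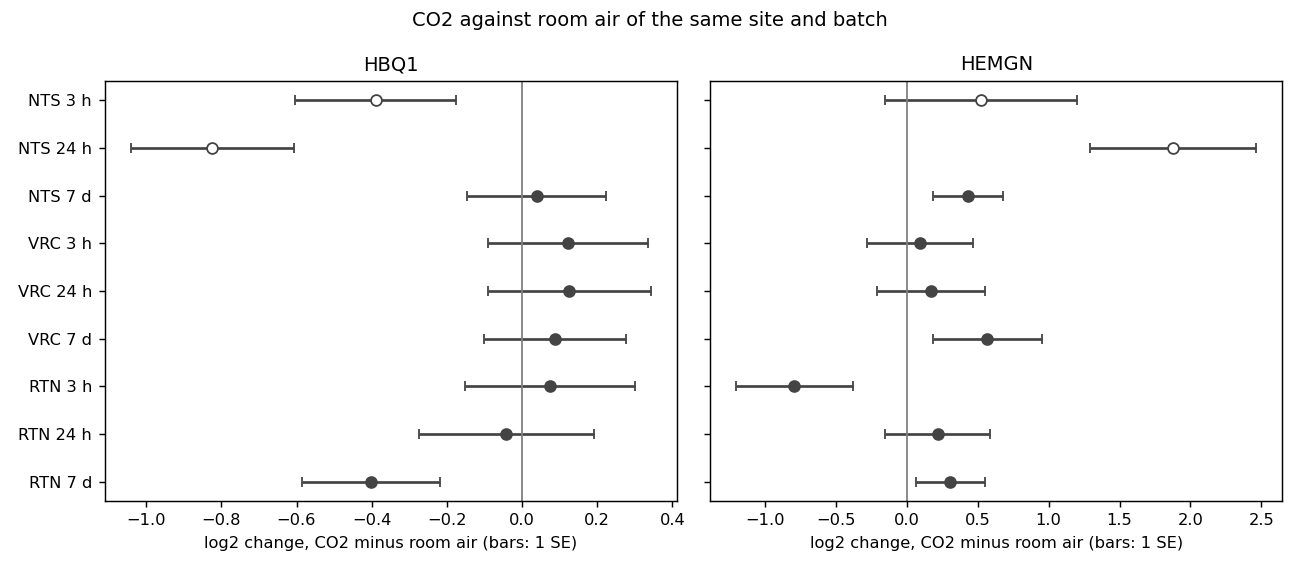
Log2 difference of CO2 minus room air for HBQ1 (left) and HEMGN (right) in the 9 comparisons, with bars of 1 SE; open circles are the NTS comparisons at 3 h and 24 h, which are descriptions, and the 2 panels have different scales. The NTS points at 24 h lie at -0.82 for HBQ1 and 1.88 for HEMGN, and no filled point passed an adjusted p of 0.05.

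The second batch, with 7 d of exposure, held goats outside the contrast that chose the genes. The refit that matched the deposited abundances did estimate the spread over all 90 libraries, these included. HBQ1 in the NTS had 9.58, 11.8 and 16.7 CPM after 7 d of room air (lowest, median, highest) and 9.27, 14.5 and 15.7 CPM after 7 d of CO2. The groups overlapped nearly throughout, with a log2 difference of 0.04 (SE 0.18, -0.35 to 0.43, edgeR adjusted p = 0.959) where 0.00653% of 15311 genes were called. In the VRC HBQ1 differed by 0.09 (SE 0.19, -0.32 to 0.49, edgeR adjusted p = 0.932), where edgeR called 0% of 15179 genes, 6.56% had an unadjusted p under 0.05 and DESeq2 called 0. In the RTN HBQ1 had 8.64, 10.3 and 18.5 CPM in room air, and after CO2 it had 6.98, 9.12 and 9.59 CPM. The difference was -0.40 (SE 0.18, -0.79 to -0.01) and did not pass adjustment (edgeR adjusted p = 0.999). Of the genes tested there 2.77% had a lower p. In that comparison edgeR called 0% of 15326 genes, 3.26% had an unadjusted p under 0.05 and DESeq2 called 4. Without room air number 6, which alone reached 18.5 CPM, the difference was -0.21.

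HEMGN at 7 d had a higher mean after CO2 than in room air at each site, without passing the test at any. In the NTS it had 0.612, 0.935 and 1.45 CPM in room air, and with CO2 it had 1.15, 1.26 and 1.72 CPM. Every CO2 library lay above the room-air median, but only 2 above the highest room-air library. The difference was 0.43 (SE 0.25, -0.10 to 0.96, edgeR adjusted p = 0.669). In the VRC it was 0.57 (SE 0.38, -0.25 to 1.39, edgeR adjusted p = 0.783), from 0.278, 0.744 and 1.29 CPM in room air to 0.492, 1.06 and 1.69 CPM with CO2. In the RTN it was 0.31 (SE 0.24, -0.21 to 0.82, edgeR adjusted p = 0.999), from 0.592, 0.752 and 0.820 CPM in room air to 0.570, 0.959 and 1.16 CPM with CO2. There 4 of 6 CO2 libraries lay above the highest room-air library and 1 below the lowest. Behind the RTN values lay 13 to 20 counts in room air and 16 to 32 with CO2.

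Whether the 7 d effect differed between the 3 sites was tested over all 36 second-batch libraries. The test gave an unadjusted edgeR p of 0.163 for HBQ1 (edgeR adjusted p = 0.929) and of 0.827 for HEMGN (edgeR adjusted p = 0.987). In that test edgeR called 0% of 16050 genes, 4.74% had an unadjusted p under 0.05 and DESeq2 called 5.

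Counts of each goat were also summed over its sites, a comparison added after the data were seen. At 7 d, over 3 sites, HEMGN differed by 0.42 (SE 0.17, 0.05 to 0.80), with an edgeR adjusted p of 1.00. HBQ1 differed by -0.08 (SE 0.11, -0.31 to 0.16). In these sums edgeR called 0% of 16628 genes and 3.87% had an unadjusted p under 0.05, and the HEMGN value did not pass adjustment. Over VRC and RTN together HBQ1 differed by 0.10 (SE 0.17) at 3 h and 0.06 (SE 0.17) at 24 h, and HEMGN by -0.35 (SE 0.27) and 0.20 (SE 0.26). None of the 4 values passed, where edgeR called 0.0123% of 16259 genes at 3 h and 0% at 24 h, the latter with 7.42% at an unadjusted p under 0.05.

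Between sites HBQ1 was lower in the RTN than in the NTS in the second batch. These fits hold 3 punches of each goat and, unless stated, have no term for the goat. Over both 7 d exposures HBQ1 averaged 12.9 ± 2.90 CPM in the NTS, 10.3 ± 2.37 in the VRC and 9.99 ± 2.99 in the RTN (SD, n = 12 each). The RTN differed from the NTS by -0.38 (SE 0.13, -0.66 to -0.11, edgeR adjusted p = 0.0306) and was lower in 9 of 12 goats. Of 16050 genes 27% were called in that comparison, so HBQ1 is 1 of many that differ between these sites. The adjusted p lay between 0.00455 and 0.1 when single goats were left out, and passed 0.05 in 5 of 12 such fits; it was lost without room-air goat 1, 3 or 4 or CO2 goat 2, 4, 5 or 6. In the 18 room-air libraries alone the difference was -0.17 (edgeR adjusted p = 0.698). Over both exposures, with the replicate number, taken as the goat, as a block, it was -0.37 (edgeR adjusted p = 0.0261). That fit called 6246 of 16050 genes. The VRC differed from the NTS by -0.34 (SE 0.13, -0.61 to -0.06, edgeR adjusted p = 0.0655), lower in 9 of 12 goats, where 23.7% of genes were called. The RTN and VRC differed by -0.05 (SE 0.14, -0.33 to 0.23, edgeR adjusted p = 0.856), where 14.5% were called.

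HEMGN did not pass the same test between sites, but its RTN to NTS difference did in a fit with the goat as a block. It averaged 1.16 ± 0.311 CPM in the NTS, 0.906 ± 0.458 in the VRC and 0.823 ± 0.178 in the RTN (SD, n = 12 each). The RTN differed from the NTS by -0.50 (SE 0.20, -0.90 to -0.09, edgeR adjusted p = 0.0571) and was lower in 11 of 12 goats. With the replicate number, taken as the goat, as a block it was -0.51 (edgeR adjusted p = 0.0416). That fit called 6246 of 16050 genes, against 4330 in the fit without the block. The VRC differed from the NTS by -0.33 (SE 0.19, -0.73 to 0.06, edgeR adjusted p = 0.218), lower in 7 of 12 goats. The RTN and VRC differed by -0.17 (SE 0.21, -0.59 to 0.26, edgeR adjusted p = 0.662).

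**Figure D4:**
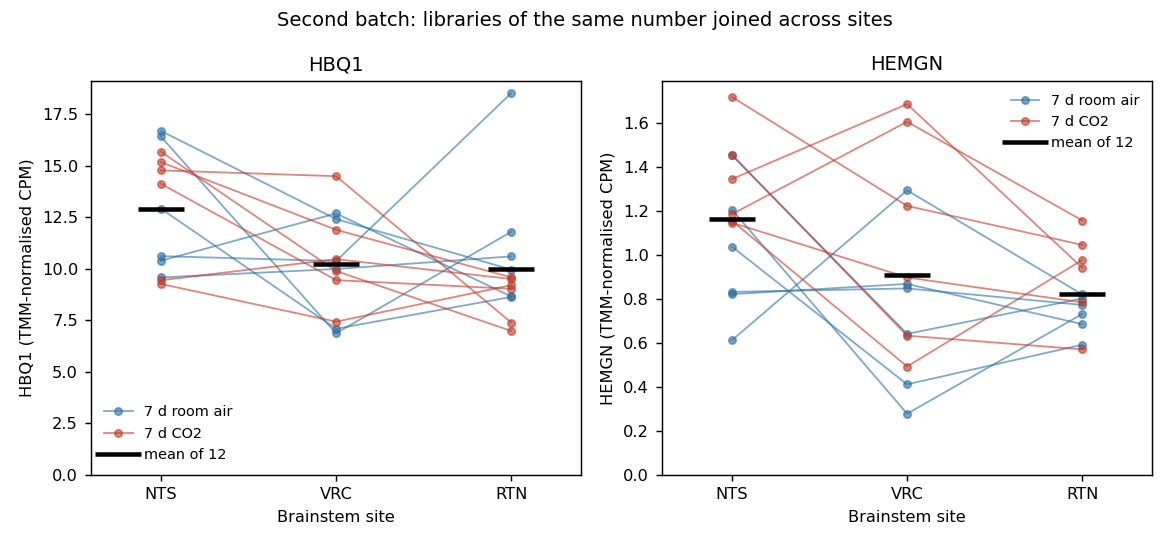
TMM-normalised CPM of HBQ1 (left) and HEMGN (right) at 3 sites in the second batch; lines join libraries of the same number and exposure, taken as 1 goat, and black bars are means of 12. HBQ1 is lower in the RTN than in the NTS in 9 of 12 goats, and HEMGN in 11 of 12.

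A goat with a high value at 1 site did not carry it to the others in a measurable way. Deviations of log2(CPM + 0.5) from the group mean were correlated over 30 goats in 9 relations. For the 6 relations of 1 gene between 2 sites Pearson's r lay between -0.15 and 0.14 and Spearman's rho between -0.22 and 0.12 (permutation p 0.276 to 0.905, adjusted p at least 0.828). Within the batches r lay between -0.38 and 0.52, and without the 2 goats farthest from the median between -0.17 and 0.27. For HBQ1 with HEMGN at the same site the strongest relation was in the VRC, with r = -0.42 (permutation p = 0.0396, adjusted p = 0.357) and rho = -0.35 (permutation p = 0.0849, adjusted p = 0.764). Without the 2 farthest goats r was -0.36. It was -0.58 in the 18 goats of the first batch and -0.14 in the 12 of the second. In the NTS r was 0.03 (permutation p = 0.874) and rho 0.05 (permutation p = 0.809), and without the 2 farthest goats r was -0.21, with 0.00 in the first batch and 0.19 in the second. In the RTN r was -0.15 (permutation p = 0.432) and rho -0.28 (permutation p = 0.170), with -0.23 without the 2 farthest goats, -0.23 in the first batch and 0.22 in the second. None of the 9 relations passed an adjusted p of 0.05.

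The genes most like HBQ1 were sought among those with a symbol, of which 237 besides each gene were available, all picked by the authors on these libraries. Likeness was Pearson's r of deviations from the 15 group means over 90 libraries, as a description, since the points share libraries, depth and goats. HBQ1 was most like FKBP11, an endoplasmic reticulum member of the FK506-binding protein family, at r = 0.69, rank 4 of 17729 genes. NDUFA13, an accessory subunit of respiratory complex I, had r = 0.57 (rank 28), and POLR2L, a small subunit of the RNA polymerases, had r = 0.57 (rank 30). The 95th percentile of r over all genes was 0.36, and the highest r was 0.74, for ENSCHIG00000012233. All 3 named genes were highest in NTS room air number 6 within their room-air group, as HBQ1 was, and highest in CO2 number 5 within the 24 h CO2 group. FKBP11 had 57.1 CPM in room air number 6 against a group median of 27.9, and 29.0 in CO2 number 5 against 19.4.

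Likeness over the 15 group means includes the NTS pair that chose both genes, so it is a description only. By this measure HBQ1 was most like DNPH1, a nucleotide hydrolase, at r = 0.83 (rank 6). ESPN, the actin bundler espin, had r = 0.83 (rank 9), and FAM241B had r = 0.72 (rank 81). The 95th percentile of r over all genes was 0.54. HEMGN had weaker likenesses over the 90 libraries. FAM234A had r = 0.39 (rank 13), GSN, the actin-severing gelsolin, had r = 0.36 (rank 41) and CAV1, the main protein of caveolae, had r = 0.36 (rank 45). The 95th percentile was 0.23 and the highest r was 0.45, for ENSCHIG00000018588. In counts this sparse such values are no finding. Over the 15 group means HEMGN was most like NUDT12, a hydrolase of NADH, at r = 0.71 (rank 26). ABHD17B, a depalmitoylase, had r = 0.67 (rank 49), and PLOD1, a collagen lysyl hydroxylase, had r = 0.66 (rank 58). For these means the 95th percentile was 0.43.

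The annotation holds limits for both genes. In the RefSeq gene table of assembly ARS1.2 HEMGN lies between TRMO and ANP32B with 0 overlapping genes, and no entry named HBQ1 was matched. Globin genes form a multigene family with some near-identical copies, so the HBQ1 count may hold reads of another globin gene, or lose them, in a way these files do not show. Strand use in the counting is not given in the sources used here, so an antisense transcript could not be told apart from either gene.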

How the data were processed

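RNA of 90 punches was made into SMART-Seq v4 and Nextera XT libraries and read as 100-bp pairs, per the labels' protocols. Per the submitters' processing notes, the tools were STAR 2.7.10b, fastp 0.24.0, edgeR 4.6 and featureCounts 2.0.6; for the genome build, the sources used here give no name. The authors deposited raw counts per Ensembl gene, and 0 other sample columns were left out. Their deposited gene tables hold log2 fold changes and log2 mean abundances, a likelihood ratio score, and p-values with FDR, per the file headers; 341 of 342 entries matched exactly 1 gene within 1e-06, which linked 238 symbols.

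Tests of the counts used edgeR 4.0.16 under R 4.3.3 (TMM, filterByExpr, glmQLFit with robust=TRUE, quasi-likelihood F test, Benjamini-Hochberg, threshold 0.05), using the libraries of 1 site and batch, or all 36 of the second batch between sites. P-values within 1 site measure the spread between goats; those between sites treat the 3 punches of a goat as independent. Intervals are 95%. Correlations used a pseudocount of 0.5 CPM and 100000 two-sided permutations within exposure groups. The script was tested on simulated data. Alternatives were DESeq2 1.42.0, RLE factors, other filters, limma 3.58.1 voom with quality weights, other libraries in the fit, a likelihood ratio test, and the replicate number as a block. The members, lists, tests and alternatives were chosen with earlier results of these data known. The NTS comparison at 3 h, planned as a test, is given as a description because it shares room-air libraries with the one that chose the genes. Besides HBQ1 and HEMGN, genes are named as the 3 with a symbol most like each by either measure, or as listed markers tied to a symbol, at most 4 per list.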

Additional observations from a re-analysis of the deposited data

Results flagged for a closer look

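In 3 of 30 groups of 6 libraries, 1 library lay farther from its neighbour than Dixon's 95% critical value of 0.625 of the group's range allows; chance alone gives this in about 1 of 20 groups. HBQ1 in NTS 24 h CO2 number 5 was at 15.8 CPM, with the next library at 8.83 (gap 0.776 of the range). This library is 1 of the 5 that stood apart. HBQ1 in RTN 7 d room air number 6 was at 18.5 CPM, with the next at 11.8 (gap 0.680). HEMGN in NTS 24 h room air number 1 was at 1.16 CPM, with the next at 0.514 (gap 0.635).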

How the results depend on the processing

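Of the values recomputed under other settings with an adjusted p, 355 kept their side of the threshold and any sign, 24 changed sign, 8 fell short of the threshold and 6 came past it. Others had none: the NTS at 3 h and 24 h, and fits in which DESeq2 gave no adjusted p. Of these, 81 counted as unchanged, 4 moved by more than the within-group SD and 1 changed sign. The SD was a criterion in the NTS only. The DESeq2 values without an adjusted p were judged by sign or by the lack of a call. No value that passed the test changed sign. In the RTN at 3 h HBQ1 was -0.21 by voom with quality weights, and in the NTS at 3 h HEMGN was -0.066 by voom. HEMGN without the 5 NTS libraries that stood apart was 0.98 at 3 h and 1.34 at 24 h. In room-air libraries alone HBQ1 was -0.17 for the RTN against the NTS and 0.19 for the RTN against the VRC. With a pseudocount of 0.1 the correlation of HBQ1 with HEMGN in the NTS was -0.046. The cause of these shifts was not tested.

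Leaving out 1 library at a time gave HBQ1 -0.50 to -0.24 in the NTS at 3 h, -0.038 to 0.13 in the NTS at 7 d, 0.0038 to 0.27 in the VRC at 24 h, -0.12 to 0.041 in the RTN at 24 h, -0.17 to 0.21 in the RTN at 3 h, -0.0049 to 0.26 in the VRC at 3 h and -0.023 to 0.18 in the VRC at 7 d. It gave HEMGN 1.47 to 2.37 in the NTS at 24 h, 0.14 to 1.01 in the NTS at 3 h, -0.15 to 0.31 in the VRC at 3 h, 0.04 to 0.30 in the VRC at 24 h, 0.39 to 0.86 in the VRC at 7 d, -0.94 to -0.45 in the RTN at 3 h and 0.022 to 0.56 in the RTN at 24 h. Leaving out 1 goat at a time gave HBQ1 -0.50 to -0.32 for RTN against NTS, -0.41 to -0.25 for VRC against NTS (past 0.05 in 2 of 12 fits, without room-air goat 2 or 6) and -0.13 to 0.026 for RTN against VRC. It gave HEMGN -0.56 to -0.43 for RTN against NTS (past 0.05 in 2 of 12, without room-air goat 2 or CO2 goat 6) and -0.53 to -0.22 for VRC against NTS (past 0.05 in 1 of 12, without room-air goat 2).

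With the replicate number as a block HEMGN was -0.51 for RTN against NTS (adjusted p = 0.0416), the 1 call of either gene that the block changed. The labels do not state that numbers mark goats. Between sites, residuals of equal numbers had correlations of -0.02 to 0.63 (median 0.33; other numbers, median -0.06), and the best correlate had the same number in 86 of 90 cases. Within 1 site the block joined equal numbers of different goats, whose residuals also correlated, and did not pair punches of 1 goat. There edgeR with the block called 13 genes in the NTS at 24 h and 95 in the VRC at 3 h, against 0 and 2 without. Between RTN and NTS the fit with the goat as a block called 6246 genes, against 4330 without it. Between RTN and VRC the fit with the goat as a block called 4168, against 2320. DESeq2 called 66 genes in the NTS at 7 d, 132 in the VRC at 3 h, 279 in the VRC at 24 h and 19 in the RTN at 3 h, against 1, 2, 126 and 2 by edgeR, where HBQ1 passed in none of the 4; HEMGN did not pass in the NTS at 7 d or the VRC at 24 h and had no adjusted p in the VRC and RTN at 3 h. Room-air libraries alone gave 1289 calls for RTN against NTS, 1359 for VRC against NTS and 704 for RTN against VRC, where all second-batch libraries gave 4330, 3801 and 2320. A filter of 1 CPM in 6 libraries removed HEMGN at 7 d in the VRC and RTN. HEMGN counts of 0 to 88 limit its precision.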
